A study of Mus musculus with 37 samples.

Results

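The acute response of Timp1 knockout colon to dextran sodium sulphate (DSS) was described from 9 of the 37 arrays of the study, chosen by their titles as the knockout acute DSS group (6 mice) and the knockout acute control group (3 mice). The knockouts were B6.129S4-Timp1tm1Pds/J mice, which carry a targeted Timp1 allele in every cell, and the wild-type mice used as a comparison were C57BL/6J (3 acute controls and 5 on acute DSS). DSS was given by mouth to induce colitis. The dose, the days on DSS and the age and sex of the mice were not given in the sources used here. Total RNA came from snap frozen colon, and each title carries its own animal number, so an array was taken as 1 mouse. The p-values weigh a difference between groups against the spread between arrays of a group. That spread was estimated for each gene over the 8 groups of all 37 arrays, and the number of arrays limits the precision. Signals are on a log2 scale, where a difference of 1 is a 2-fold change, and array medians lay between 8.04 and 8.17. Animal numbers had 2 forms. Knockout DSS mice 1 to 3 had a plain number, as all wild-type acute mice did, while knockout DSS mice 4 to 6 and all 3 knockout controls shared a prefix and are called the same-series mice below. The labels do not say what the prefix stands for. In the comparison over all 6 DSS mice, the spread within the DSS group includes any difference between these 2 forms.

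DSS is a sulphated polysaccharide that injures the colonic epithelium. Bacterial products then reach the mucosa, macrophages and epithelial cells release cytokines and chemokines, and neutrophils enter the tissue, while absorptive functions of the surface epithelium are lost. TIMP1 is a secreted inhibitor of matrix metalloproteinases, the enzymes that cut collagen and other matrix proteins, and it also acts as a growth and survival signal. It is strongly induced in inflamed gut of animals with an intact gene.

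Timp1 itself was measured first. Its log2 signal in the knockout controls was 7.12, 6.97 and 6.94. In plain-number DSS mice Timp1 read 7.10, 7.57 and 7.40, and in same-series DSS mice 7.24, 7.68 and 8.68. DSS mouse 1 lay within the control range and the other 5 above it. The difference of 0.60 ± 0.38 (log2, SE of the fit, n = 6 and 3) did not pass (adjusted p = 0.449, limma). In wild-type mice, Timp1 was 7.56 to 7.76 in controls and 9.47 to 12.19 on DSS, a rise of 3.12 ± 0.39 (adjusted p = 5.32e-07, limma) in a comparison in which 41.2% of genes passed. The response was smaller in knockouts by 2.52 ± 0.55 log2 units (adjusted p = 0.00468 for the interaction, limma). The knockout control readings lay under the array medians of 8.04 to 8.17, and how much of them is background was not tested. Whether the probes lie in the targeted part of the gene was not analysed here.

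The epithelial identity of the samples was checked on markers. Epcam, an adhesion protein of all gut epithelium, read 11.97 to 12.16 in controls and 11.72 to 12.08 on DSS. Muc2, the main mucin of goblet cells, read 13.99 to 14.26 in controls and 13.85 to 14.22 on DSS, so both groups overlapped for both genes. Ranges of Cdh17, Krt20 and Cdx2 overlapped as well. The colonocyte genes Car1 and Slc26a3 overlapped too but reached lower values on DSS. Car1 read 14.2 to 14.3 in controls and 12.5 to 14.3 on DSS, and Slc26a3 12.6 to 12.7 and 11.2 to 12.8. Myh11, the smooth muscle myosin of the muscle wall, read 12.77 to 13.02 in controls and 11.46 to 12.86 on DSS. Keratins 5, 14 and 10 of squamous epithelium lay between 6.95 and 8.05 in all 9 arrays. Of 38 markers of 12 cell types, 35 were measured and 1, the neutrophil gene Retnlg, passed the test, against 1.12% of all genes. In whole tissue, fewer cells of a type and less RNA per cell cannot be told apart. Xist and Y-linked genes showed that knockout control 2 and DSS mouse 4 were male, and the other 7 mice female.

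Over all 6 DSS mice against the 3 controls, 223 of 19938 genes passed at an adjusted p under 0.05 (limma, 1.12%). Of these, 53 were higher (0.266%) and 170 lower (0.853%) on DSS, and 21 rose and 19 fell by at least 2-fold. At an unadjusted p under 0.05 there were 3251 genes. Fitted on these 9 arrays alone, which leaves fewer arrays to estimate the spread, limma called 0 genes, with 2253 at an unadjusted p under 0.05. Values of all 6 DSS mice lay above all 3 controls for 556 genes (2.79%) and below them for 733 (3.68%). Restricted to the same-series mice, 3 against 3, only 3 genes passed (0.015%), all of them lower, with 2678 at an unadjusted p under 0.05. Between the plain-number and the same-series DSS mice, both on DSS, 1634 genes were higher (8.2%) and 1354 lower (6.79%) in the plain-number mice. Since all controls came from 1 of them, animal series and treatment cannot be told apart for the plain-number mice, and the same-series difference stands in the same paragraph for each gene called over all mice whose values are given.

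The calls rest on few controls. Leaving out any 1 array left 8 genes called every time: Bhlhe41, Capsl, Cryzl2, Ephx1, Fgfr3, Gstm2, Gstt1 and Itih2, all lower on DSS. Of the 40 genes with the largest differences, 36 were no longer called without control 1, 33 without control 2 and 30 without control 3, and 0 changed direction. Without the plain-number DSS mice 1, 2 or 3 in turn, 15, 21 and 22 of the 40 were lost. Without same-series DSS mouse 4 or 5, 0 of the 40 were lost, and 5 were lost without DSS mouse 6.

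**Figure D1:**
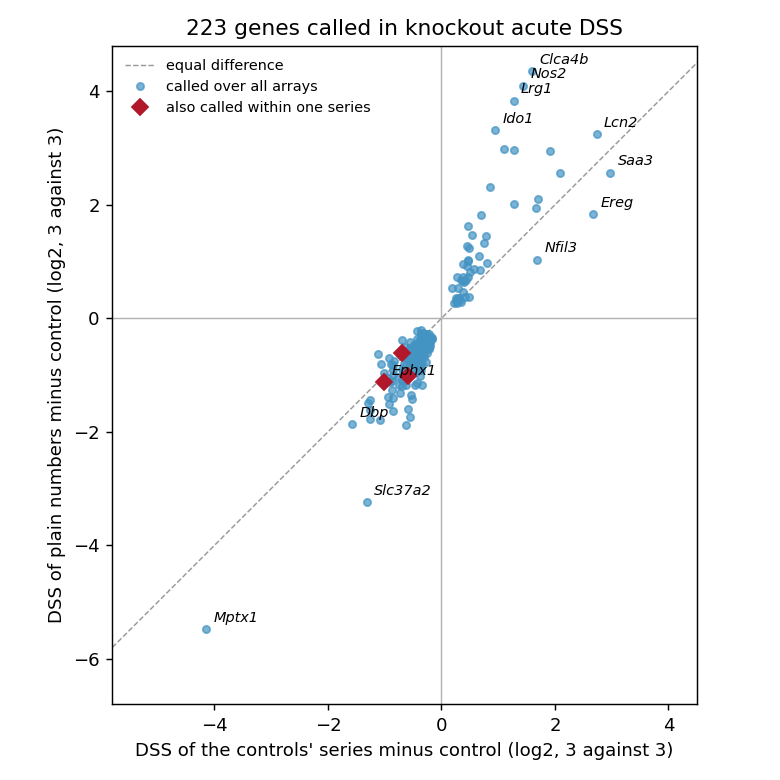
Log2 difference from the 3 knockout controls for the 223 genes that passed over all 9 arrays, in the 3 same-series DSS mice (horizontal axis) and in the 3 plain-number DSS mice (vertical axis). Both axes use the same controls, and the 3 diamonds are the genes that also passed within the series. Clca4b, Nos2, Lrg1 and Ido1 lie above the dashed line of equal difference, and Mptx1 lies farthest down.

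The 6 DSS mice also differed among themselves. Among the 53 genes called higher, which were chosen on these same arrays, the median excess over the control mean was 0.74, 1.02 and 1.11 log2 units in the plain-number mice and 0.46, 0.40 and 0.62 in same-series mice 4, 5 and 6. DSS mouse 5 had the lowest DSS value for Lcn2, Lrg1, Retnlg, S100a8 and Il1b. The mean signal of 17 neutrophil genes was 6.55 to 6.64 in controls and 7.35, 8.58 and 7.84 in plain-number DSS mice. Among same-series DSS mice it was 7.40, 6.71 and 8.26, with mouse 5 the lowest. The part of neutrophil RNA in the other inflammatory genes was not tested.

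**Figure D2:**
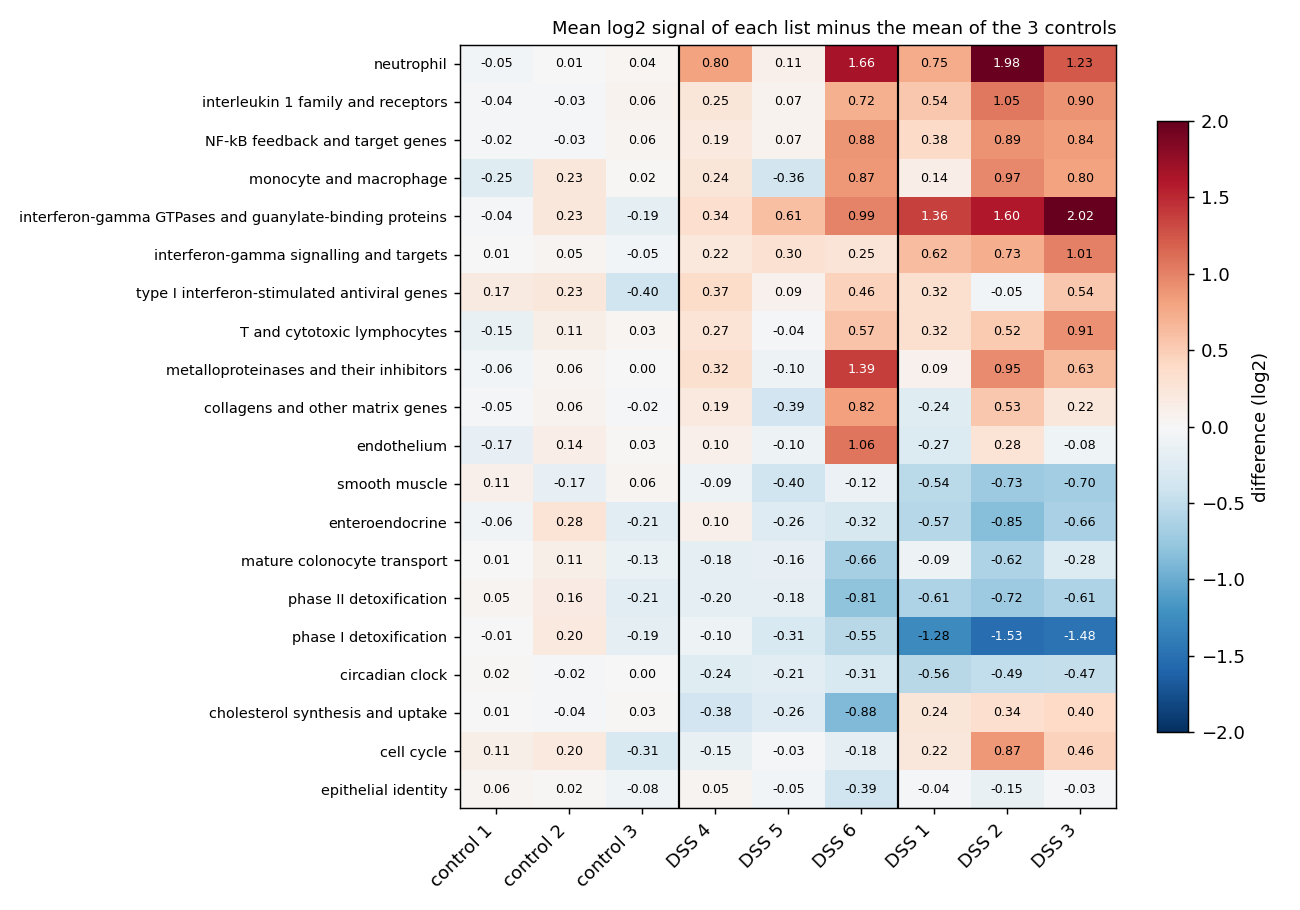
Mean log2 signal of 20 gene lists in each of the 9 arrays, minus the mean of the 3 controls (red higher, blue lower). Columns are the 3 controls, same-series DSS mice 4 to 6 and plain-number DSS mice 1 to 3. Neutrophil genes exceeded the controls by 0.11 in DSS mouse 5 and by 1.98 in DSS mouse 2, and phase I detoxification genes lay between -1.53 and -1.28 in plain-number and between -0.55 and -0.10 in same-series DSS mice.

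Among secreted acute-phase and antimicrobial proteins, 4 of 26 measured genes rose and 2 fell, against 0.266% and 0.853% of all genes. The list median was 0.28 against 0.00 over all genes. Lcn2, the siderophore-binding lipocalin 2, read 7.26, 7.53 and 7.01 in controls. On DSS it read 9.05, 11.94 and 10.53 in plain-number mice and 9.70, 7.43 and 12.87 in same-series mice. DSS mouse 5 was inside the control range and the other 5 were above it. Lcn2 rose by 2.99 ± 0.72 log2 units over all mice (adjusted p = 0.0332, limma) and the same-series difference was 2.73 ± 0.86 (adjusted p = 0.159).

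Saa3, a serum amyloid A made locally in inflamed tissue, read 7.65, 7.31 and 7.50 in controls. On DSS it was 8.27, 11.37 and 10.53 in plain-number and 10.53, 7.84 and 13.02 in same-series mice, all above the controls. Saa3 rose by 2.77 ± 0.70 (adjusted p = 0.0423, limma), with a same-series difference of 2.98 ± 0.83 (adjusted p = 0.132). Its rise in wild-type mice was 6.28 ± 0.72, so that the knockout response was smaller by 3.51 ± 1.01 (adjusted p = 0.0219 for the interaction). Serpina3n, a protease inhibitor of the acute phase, rose by 2.33 ± 0.49 (adjusted p = 0.0156), and DSS mouse 5 at 9.57 again lay within the control range of 8.79 to 10.03. Ltf, the iron-binding lactoferrin of neutrophil granules and secretions, rose by 1.00 ± 0.25 (adjusted p = 0.0439). The same-series differences were 2.09 ± 0.58 for Serpina3n (adjusted p = 0.13) and 0.53 ± 0.25 for Ltf (adjusted p = 0.356).

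Lrg1, a leucine-rich glycoprotein of the acute phase, showed a difference between the DSS groups. It read 7.06, 7.21 and 7.48 in controls, 10.38, 11.86 and 11.02 in plain-number DSS mice and 7.96, 7.68 and 9.92 in same-series DSS mice. No DSS value overlapped the controls, and no plain-number value overlapped a same-series value. Lrg1 was higher by 2.56 ± 0.64 over all DSS mice (adjusted p = 0.0416), by 1.27 ± 0.60 in the same series (adjusted p = 0.354) and by 2.57 ± 0.60 in plain-number over same-series DSS mice (adjusted p = 0.00426, limma).

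Mptx1, a pentraxin of the intestinal mucosa, had the most negative difference of all called genes. Controls read 11.24, 11.61 and 12.70. Plain-number DSS mice read 6.97, 5.49 and 6.64 and same-series DSS mice 6.14, 11.68 and 5.28. In 5 of the 6 DSS mice the signal was more than 4 log2 units under the lowest control, and DSS mouse 5 was within the control range. The difference was -4.82 ± 1.02 (adjusted p = 0.0156) over all mice and -4.15 ± 1.19 (adjusted p = 0.135) in the same series. Wfdc2, a small secreted protein of mucosal surfaces, fell by 1.39 ± 0.33 (adjusted p = 0.0307), also with DSS mouse 5 at the control level (10.38, controls 10.09 to 10.62). Its same-series difference was -1.29 ± 0.39 (adjusted p = 0.149).

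**Figure D3:**
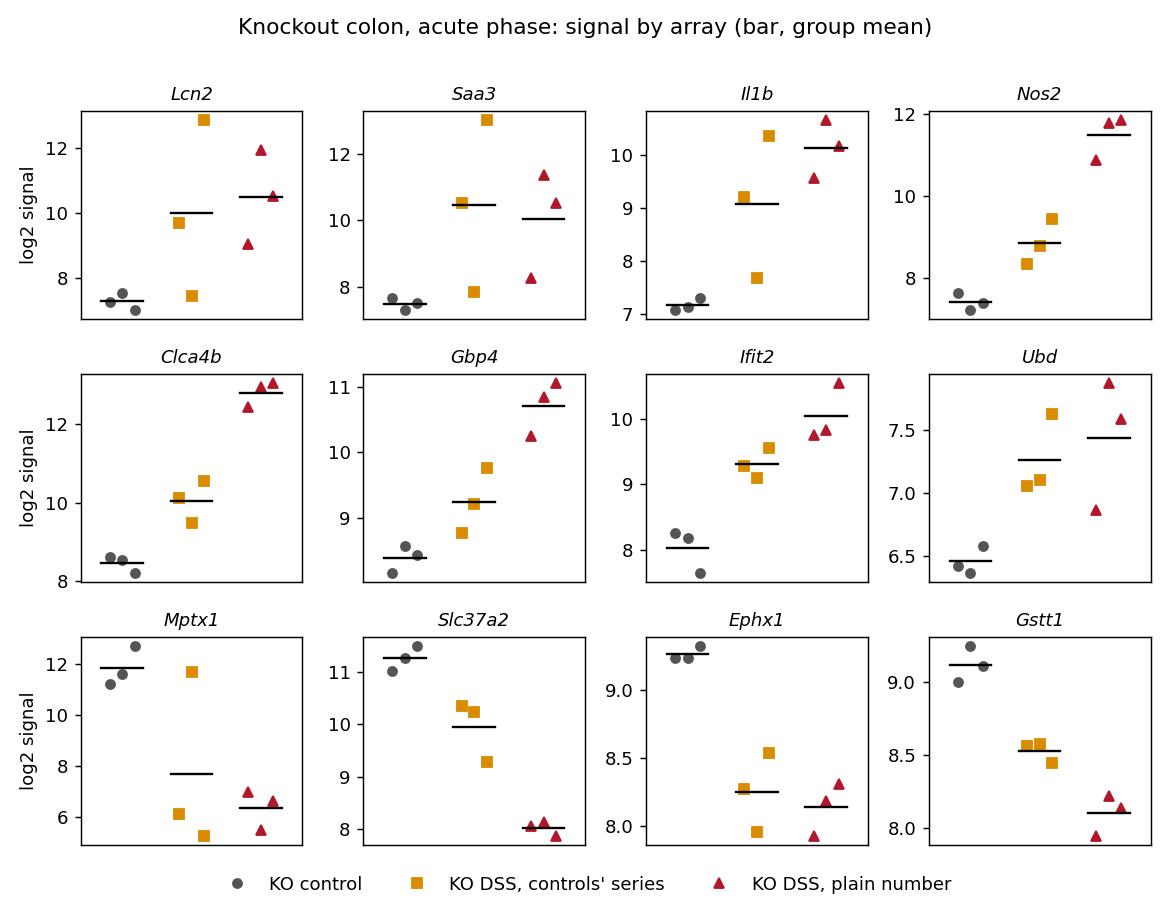
Log2 signal of 12 genes in each knockout acute mouse, with a bar at each group's mean: controls (circles), same-series DSS mice (squares) and plain-number DSS mice (triangles). For Mptx1 and Lcn2 a single same-series DSS mouse sits with the controls, whereas for Ephx1 and Gstt1 all 6 DSS mice lie below all 3 controls.

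Of 17 neutrophil genes, 2 rose and 0 fell, against 0.266% and 0.853% of all genes. The median difference was 1.14, with 0.89 in the same series, and all 17 differences were above 0. Retnlg, a resistin-like protein of neutrophils, read 6.33 to 6.49 in controls, 7.88, 9.54 and 8.18 in plain-number and 8.11, 6.83 and 9.45 in same-series DSS mice, with no overlap. It rose by 1.90 ± 0.47 (adjusted p = 0.0371), with 1.70 ± 0.55 in the same series (adjusted p = 0.171). The rise was less than in wild type by 2.31 ± 0.68 (adjusted p = 0.0242 for the interaction). S100a8, a subunit of calprotectin, was also above all controls in all 6 DSS mice (6.32 to 9.94 against 5.98 to 6.24) and missed the threshold (2.16 ± 0.60, adjusted p = 0.0646).

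Among 17 genes of the interleukin 1 family, Il1b and Il18bp rose and 0 fell, against 0.266% and 0.853% of all genes. Il1b, the inflammasome-processed cytokine, read 7.09, 7.14 and 7.32 in controls, 9.57, 10.65 and 10.17 in plain-number and 9.21, 7.69 and 10.36 in same-series DSS mice. The groups did not overlap, and the rise was 2.43 ± 0.57 (adjusted p = 0.0307) with 1.91 ± 0.65 in the same series (adjusted p = 0.203). Il18bp, which binds and neutralizes interleukin 18, rose by 0.66 ± 0.14 (adjusted p = 0.0146), from 8.80 to 8.92 in controls to 9.24 to 9.89 on DSS. Its same-series difference was 0.50 ± 0.15 (adjusted p = 0.15). Of 28 chemokines none passed, and 7 were above all controls in every DSS mouse, against 2.79% of all genes. Cxcl9, a T cell attractant induced by interferon gamma, differed by 2.08 (adjusted p = 0.091), Cxcl5 by 2.02 (adjusted p = 0.072) and Cxcl2 by 1.98 (adjusted p = 0.0729). Of 19 other inflammatory cytokines 0 passed, and Il6, Il11 and Tnf differed by 1.50, 1.31 and 0.89.

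In a list of 13 oxidases, a nitric oxide synthase and related genes, 1 rose and 0 fell, against 0.266% and 0.853% of all genes. The list median was 0.37. The call was Nos2, the inducible nitric oxide synthase, which read 7.61, 7.22 and 7.38 in controls, 10.87, 11.79 and 11.85 in plain-number and 8.33, 8.77 and 9.44 in same-series DSS mice. All 3 groups of arrays were separate. Nos2 rose by 2.77 ± 0.59 over all mice (adjusted p = 0.0156), differed by 1.44 ± 0.51 in the same series (adjusted p = 0.213) and was 2.66 ± 0.51 higher in plain-number than in same-series DSS mice (adjusted p = 0.000773). Among 12 gasdermins and chloride channel regulators 1 rose and 0 fell, against the same shares of all genes. The median was -0.18 and only 4 differences were above 0. The call, Clca4b, a member of the calcium-activated chloride channel regulators, had the same order: 8.22 to 8.61 in controls, 9.49 to 10.54 in same-series and 12.43 to 13.04 in plain-number DSS mice. It rose by 2.97 ± 0.61 (adjusted p = 0.0125), with 1.60 ± 0.53 in the same series (adjusted p = 0.186). Among 11 EGF family ligands and receptors 1 rose and 0 fell (median 0.16), against the same shares of all genes. Ereg, the EGF receptor ligand epiregulin, rose by 2.25 ± 0.55 (adjusted p = 0.034), and plain-number DSS mouse 1 at 7.39 lay within the controls (7.06 to 7.59). The same-series difference of Ereg was 2.67 ± 0.64 (adjusted p = 0.0822).

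All 11 measured immunity-related GTPases and guanylate-binding proteins, which attack vacuoles that hold intracellular microbes, had a difference above 0, with a median of 0.98 (0.60 in the same series). Of these, 3 passed as higher (Iigp1, Gbp4 and Gbp8), against 0.266% of all genes. Above all controls in every DSS mouse were 7 of the 11, against 2.79% of all genes. Gbp4 read 8.17, 8.58 and 8.45 in controls, 10.24, 10.84 and 11.05 in plain-number and 8.77, 9.22 and 9.76 in same-series DSS mice. It rose by 1.58 ± 0.39 (adjusted p = 0.0369), and the same-series difference was 0.85 ± 0.38 (adjusted p = 0.326). Gbp8 rose by 1.11 ± 0.22 (adjusted p = 0.00896) and Iigp1 by 2.12 ± 0.51 (adjusted p = 0.0311). Their same-series differences were 0.78 ± 0.23 (adjusted p = 0.141) and 1.28 ± 0.52 (adjusted p = 0.283). Gbp5, which promotes inflammasome assembly, lay just outside the threshold at 1.71 ± 0.45 (adjusted p = 0.0508). Between the DSS groups, 6 of the 11 were higher in plain-number mice, against 8.2% of all genes.

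Interferon gamma itself differed between the DSS groups. Ifng read 6.53, 6.63 and 6.69 in controls, 6.57, 6.75 and 6.68 in same-series DSS mice and 7.41, 8.24 and 7.97 in plain-number DSS mice. The last group was above all other arrays, by 1.21 ± 0.14 over the same-series DSS mice (adjusted p = 6.37e-06), while the difference of same-series DSS mice from controls was 0.05 ± 0.14 (adjusted p = 0.907). Ido1, which starts tryptophan breakdown, was 11.86, 12.20 and 12.58 in plain-number and 9.94, 10.49 and 9.11 in same-series DSS mice, against 9.01, 9.48 and 8.21 in controls. It rose by 2.13 ± 0.54 over all mice (adjusted p = 0.0442), and the same-series difference was 0.95 ± 0.48 (adjusted p = 0.394).

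Several interferon-induced genes were also higher in the same-series DSS mice than in every control. Ifit2, an antiviral protein that binds RNA, read 8.25, 8.18 and 7.65 in controls, 9.75, 9.82 and 10.54 in plain-number and 9.28, 9.09 and 9.56 in same-series DSS mice. It rose by 1.65 ± 0.29 (adjusted p = 0.00492), with 1.28 ± 0.32 in the same series (adjusted p = 0.0986). It was the only 1 of 23 type I interferon genes to pass, against 1.12% of all genes, and the list's median was 0.17. Ubd, a ubiquitin-like modifier induced by interferon gamma and tumour necrosis factor, rose by 0.89 ± 0.17 (adjusted p = 0.00787), from 6.37 to 6.58 in controls to 6.87 to 7.87 on DSS. In wild-type mice Ubd differed by 0.04 ± 0.17, and the interaction of 0.85 ± 0.24 passed (adjusted p = 0.0218). Irf8, a transcription factor of the interferon pathway and of myeloid cells, rose by 0.56 ± 0.13 (adjusted p = 0.0303). The same-series differences were 0.81 ± 0.20 for Ubd (adjusted p = 0.0951) and 0.38 ± 0.14 for Irf8 (adjusted p = 0.238).

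Detoxification enzymes gave all 3 calls within the series. Of 29 phase II (conjugating) enzymes 5 fell and 0 rose, against 0.853% and 0.266% of all genes. The median was -0.50 (-0.45 in the same series). Below all controls in every DSS mouse were 9 of the 29, against 3.68% of all genes. Gstt1, a glutathione transferase, read 9.0, 9.24 and 9.11 in controls, 7.95, 8.22 and 8.14 in plain-number and 8.56, 8.57 and 8.44 in same-series DSS mice. It fell by 0.80 ± 0.11 (adjusted p = 0.000429) and by 0.59 ± 0.11 in the same series (adjusted p = 0.0341). Gstm2, another glutathione transferase, read 10.18, 10.27 and 10.14 in controls, 9.76, 9.35 and 9.64 in plain-number and 9.42, 9.87 and 9.20 in same-series DSS mice. It fell by 0.66 ± 0.10 (adjusted p = 0.00189) and by 0.70 ± 0.12 in the same series (adjusted p = 0.0297). Gstm4 was the fifth call, and Gstm1 and Gstm3, of the same gene cluster, fell by 0.87 ± 0.18 (adjusted p = 0.0146) and 1.07 ± 0.26 (adjusted p = 0.0344). Gstm1 and Gstm3 differed by -0.64 ± 0.20 and -0.87 ± 0.30 in the same series (adjusted p = 0.158 and 0.203). Glutathione transferases of 1 class are similar in sequence, so their probes may share signal.

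Ephx1, the microsomal epoxide hydrolase, was the third gene called within the series. It read 9.23, 9.23 and 9.32 in controls, 7.93, 8.19 and 8.31 in plain-number and 8.27, 7.96 and 8.53 in same-series DSS mice. The fall was 1.06 ± 0.14 over all mice (adjusted p = 0.000268) and 1.01 ± 0.17 in the same series (adjusted p = 0.0235). Plain-number and same-series DSS mice differed by -0.11 ± 0.17 (adjusted p = 0.706).

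Phase I enzymes, the cytochromes P450, carboxylesterases and other enzymes that oxidize or hydrolyse foreign compounds, differed between the DSS groups. Their mean signal was 8.1 to 8.3 in plain-number and 9.1 to 9.5 in same-series DSS mice. It was 9.4 to 9.8 in knockout controls. In wild-type mice, which all had plain numbers, it was 9.0 to 9.2 in acute controls and 7.1 to 9.1 on acute DSS. Of 33 measured, 2 fell over all DSS mice and 0 rose, against 0.853% and 0.266% of all genes. The 2 were Ephx1 and Fmo4, neither a cytochrome P450 nor a carboxylesterase. The list median was -0.74 but -0.14 in the same series. Between the DSS groups, 13 were lower in plain-number mice, against 6.79% of all genes. Cyp2c55 read 12.87, 13.06 and 12.39 in controls and 13.16, 12.31 and 12.61 in same-series DSS mice, but 5.90, 7.98 and 6.58 in plain-number DSS mice. The DSS groups differed by -5.88 ± 1.03 (adjusted p = 0.00032), and same-series DSS and control mice by -0.08 ± 1.03 (adjusted p = 0.984). Cyp2c65 showed -5.32 ± 1.12 (adjusted p = 0.00177) between the DSS groups. Ces1g, a carboxylesterase, showed -2.97 ± 0.56 (adjusted p = 0.000707).

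Other genes also separated the DSS groups. Slc51a, the alpha subunit of the basolateral bile acid and steroid transporter, was 6.95, 6.58 and 6.78 in plain-number DSS mice, 10.20 to 11.33 in same-series DSS mice and 8.88 to 10.21 in controls (-3.95 ± 0.70 between DSS groups, adjusted p = 0.000383). Osr2, a zinc finger transcription factor, and Abca12, a lipid transporter, differed by -3.77 ± 0.76 and -3.71 ± 0.95 (adjusted p = 0.00121 and 0.00816). Of 15 cholesterol synthesis genes 12 were higher in plain-number DSS mice, against 8.2% of all genes. Fdft1, squalene synthase, read 11.54, 11.63 and 11.76 there, 10.69, 10.68 and 10.06 in same-series DSS mice and 10.99 to 11.24 in controls, with the controls between the DSS groups. Of 23 cell cycle genes 13 were higher in plain-number DSS mice, against the same 8.2%. Of 20 smooth muscle genes 6 were lower there, and of 14 enteroendocrine genes 6, against 6.79% of all genes. Over all DSS mice against controls, 0 of the 20 smooth muscle genes passed and 0 differences were above 0 (median -0.37). In the same series 1 smooth muscle difference was above 0 (median -0.18). Pla2g2a, a secreted antibacterial phospholipase, was 10.87, 11.70 and 11.50 in plain-number DSS mice and 7.58 to 9.35 in same-series DSS mice (3.10 ± 0.49, adjusted p = 0.000109).

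Some homeobox genes, whose expression marks position along the gut, also differed between the DSS groups, in both directions. Of 16 measured Hox genes, a list added after their values were seen, 5 were higher and 5 lower in plain-number DSS mice. Over all genes these shares were 8.2% and 6.79%. Between DSS and control 0 passed, and 0 of the 16 differences were above 0, with a median of -0.295. In the same series 5 were above 0, with a median of -0.295. Hoxb6 was 7.38, 6.92 and 6.97 in plain-number DSS mice, 9.43, 9.64 and 9.25 in same-series DSS mice and 8.98, 9.01 and 8.38 in controls (-2.35 ± 0.42 between DSS groups, adjusted p = 0.00043). Hoxb13, expressed in the distal gut, was 7.24, 10.40 and 6.93 in same-series DSS mice 4, 5 and 6, and 10.25 to 11.32 in the other 6 knockout mice. Hoxb13 in wild-type mice was 11.41 to 11.80 in controls and 6.35 to 7.84 on DSS. The part of the sampled colon region in these results was not tested.

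**Figure D4:**
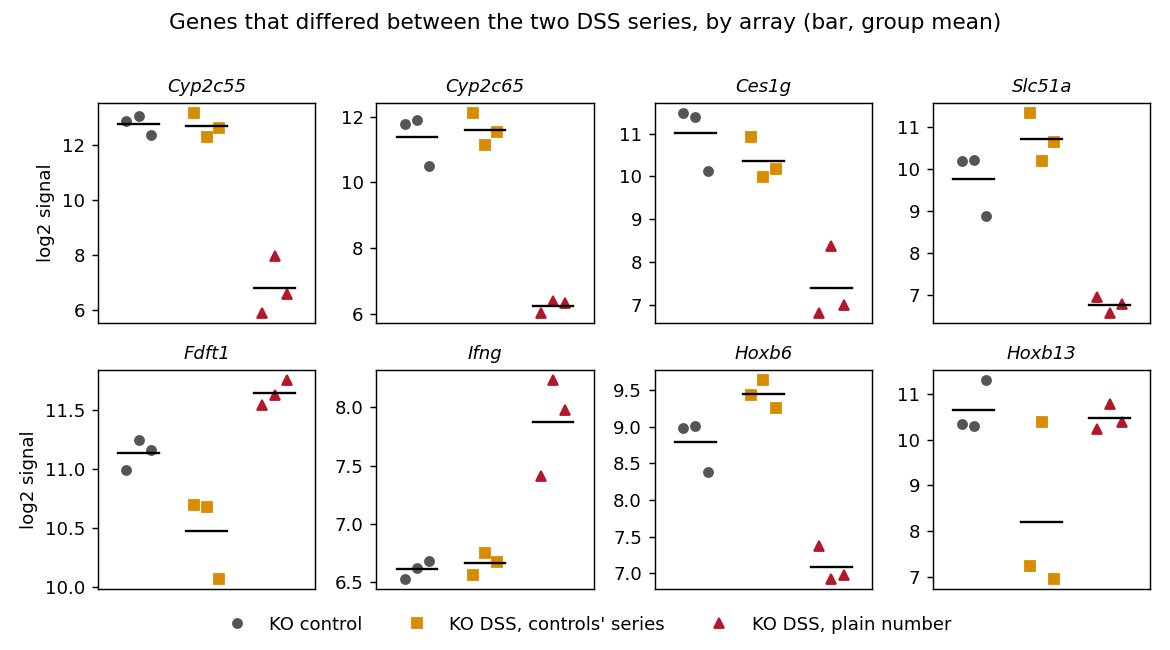
Log2 signal of 8 genes that differed between the DSS groups or, for Hoxb13, within them, by mouse, with group means as bars. Same-series DSS mice (squares) lie at the level of the controls (circles) for Cyp2c55, Cyp2c65 and Ifng, and plain-number DSS mice (triangles) lie apart.

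Among 30 transporters and other genes of mature colonocytes, 3 fell and 0 rose, against 0.853% and 0.266% of all genes. The median was -0.32. Slc37a2, a sugar-phosphate exchanger, read 11.02, 11.27 and 11.49 in controls, 8.07, 8.13 and 7.88 in plain-number and 10.35, 10.23 and 9.27 in same-series DSS mice. It fell by 2.27 ± 0.58 (adjusted p = 0.0447), and the 3 groups of arrays were separate. Slc20a1, a phosphate transporter, fell by 1.21 ± 0.31 (adjusted p = 0.0421), less than in wild type by 1.34 ± 0.44 (adjusted p = 0.0416 for the interaction). The third call of the list was Slc16a1, a carrier of butyrate and lactate. Outside the list, Slc16a9, a carnitine exporter, fell by 1.26 ± 0.25 (adjusted p = 0.0104), with plain-number DSS mice at 7.82 to 7.97 and same-series DSS mice at 8.87 to 9.64. Cps1, the carbamoyl phosphate synthetase of the urea cycle, fell by 1.13 ± 0.22 (adjusted p = 0.00896), and Maob, a monoamine oxidase, by 1.09 ± 0.24 (adjusted p = 0.0192). In the same series the differences were -1.31 ± 0.60 for Slc37a2, -0.92 ± 0.34 for Slc20a1 and -0.62 ± 0.19 for Slc16a9 (adjusted p = 0.338, 0.229 and 0.15). For Cps1 and Maob they were -0.85 ± 0.24 and -0.59 ± 0.22 (adjusted p = 0.135 and 0.237). Of 12 epithelial identity genes 0 passed, and their median was -0.11.

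Genes of the circadian clock gave 1 higher and 4 lower calls among 18, against 0.266% and 0.853% of all genes. The clock is a feedback loop in which BMAL1 (gene Arntl) and CLOCK drive their own repressors and a set of output factors. Dbp, a transcription factor that is a direct output of the clock, read 10.29, 10.46 and 10.51 in controls, 8.32, 8.60 and 8.73 in plain-number and 8.99, 9.31 and 8.25 in same-series DSS mice. It fell by 1.72 ± 0.41 (adjusted p = 0.0307), with -1.57 ± 0.48 in the same series (adjusted p = 0.153). Nr1d1, the repressor REV-ERB alpha, read 12.17, 12.19 and 12.14 in controls and 10.36 to 11.40 on DSS and fell by 1.34 ± 0.33 (adjusted p = 0.0332). Bhlhe41, another repressor of the loop, read 7.35, 7.24 and 7.13 in controls, 5.72, 5.89 and 5.94 in plain-number and 6.35, 6.05 and 6.48 in same-series DSS mice, and fell by 1.17 ± 0.19 (adjusted p = 0.00217). Hlf, of the same family as Dbp, fell by 0.78 ± 0.20 (adjusted p = 0.0442). Nfil3, which represses the genes that Dbp activates, rose by 1.36 ± 0.32 (adjusted p = 0.0303), from 7.55 to 7.78 in controls to 8.55 to 10.34 on DSS. In the same series the differences were -1.25 ± 0.38 for Nr1d1 (adjusted p = 0.148), -0.95 ± 0.21 for Bhlhe41 (adjusted p = 0.0713) and -0.55 ± 0.22 for Hlf (adjusted p = 0.272). That of Nfil3 was 1.69 ± 0.36 (adjusted p = 0.0701).

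The wild-type values place these changes. Dbp was 8.18 to 8.45 in wild-type controls and 8.51 to 9.23 on wild-type DSS, so the knockout controls alone were high. Knockout controls exceeded wild-type controls by 2.10 ± 0.47 for Dbp (adjusted p = 0.0195), by 1.44 ± 0.38 for Nr1d1 (adjusted p = 0.0485) and by 1.03 ± 0.22 for Bhlhe41 (adjusted p = 0.0131), in a comparison in which 1.12% of genes passed. The responses differed between genotypes by -2.21 ± 0.59 for Dbp (adjusted p = 0.0146), -1.70 ± 0.47 for Nr1d1 (adjusted p = 0.0177) and -1.34 ± 0.27 for Bhlhe41 (adjusted p = 0.00311), where 12.3% of all genes passed. Arntl, which peaks opposite to Dbp, was 8.94 to 9.09 in knockout controls, 8.87 to 9.50 on knockout DSS, 10.04 to 10.39 in wild-type controls and 8.81 to 9.20 on wild-type DSS. These comparisons share the knockout controls. Genotype and animal series cannot be told apart in the control comparison, and the hour of collection was not given in the sources used here.

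**Figure D5:**
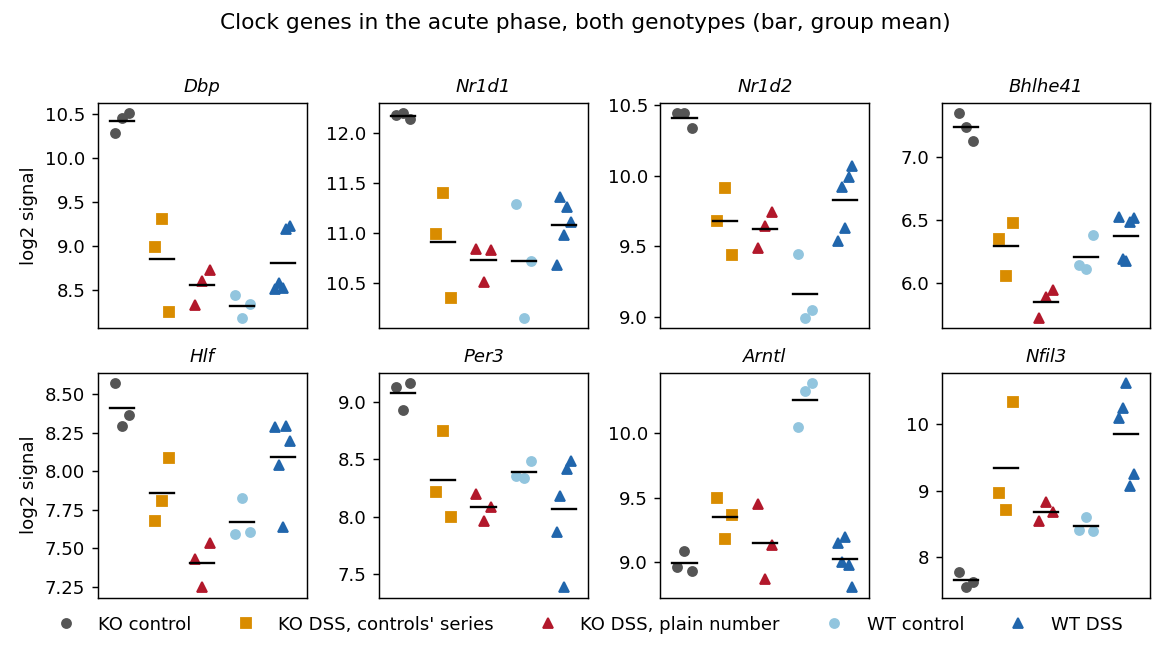
Log2 signal of 8 clock genes in each acute mouse of both genotypes, with a bar at each group's mean. For Dbp, Nr1d1, Nr1d2 and Bhlhe41 the 3 knockout controls lie above all other acute mice, and for Nfil3 they lie below them.

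The promoters of Bhlhe41, called on DSS, and of Ciart, a clock repressor with a difference of -0.70 ± 0.34 (adjusted p = 0.296), are shown because they hold the E-box CACGTG, the motif bound by CLOCK and BMAL1, in capitals. Each is the 250 bases before the start from RefSeq on GRCm38.p6, minus strand, at chr6:145865421-145865670 for Bhlhe41 and chr3:95882229-95882478 for Ciart. Bhlhe41 has 1 E-box, 153 bases before the start, and Ciart has 3, at 116, 58 and 44 bases before it.
Bhlhe41: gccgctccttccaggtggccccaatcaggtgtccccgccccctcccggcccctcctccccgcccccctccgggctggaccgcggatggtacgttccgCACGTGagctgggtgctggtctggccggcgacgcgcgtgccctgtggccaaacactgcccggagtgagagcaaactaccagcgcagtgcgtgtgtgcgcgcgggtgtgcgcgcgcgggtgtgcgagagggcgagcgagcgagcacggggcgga
Ciart: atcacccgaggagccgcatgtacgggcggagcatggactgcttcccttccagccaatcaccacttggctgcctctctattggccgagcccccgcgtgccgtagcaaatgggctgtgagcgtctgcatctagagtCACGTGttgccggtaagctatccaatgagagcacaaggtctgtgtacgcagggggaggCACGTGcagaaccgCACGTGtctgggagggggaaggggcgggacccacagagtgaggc
Of the 18 clock genes, 16 had 21 promoters in the table. An E-box lay between 250 bases before and 50 after the start, both strands searched, in 6 of these 21 promoters (5 genes), against 7.15% of all promoters. Among these 5 genes only Bhlhe41 was called on DSS. No E-box was found for the other called clock genes with a searched promoter, Dbp among them.

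Of 31 collagens and other matrix genes, which include substrates of metalloproteinases, 0 passed, against 1.12% of all genes. Their median was 0.21 (0.23 in the same series). Of 27 metalloproteinases and their inhibitors 0 passed, with a median of 0.32. Mmp3, stromelysin 1, read 6.38, 6.20 and 6.29 in controls, 7.04, 9.68 and 8.47 in plain-number and 8.03, 6.30 and 11.18 in same-series DSS mice, and its difference of 2.16 ± 0.66 did not pass (adjusted p = 0.0912). DSS mouse 5 was within the controls and DSS mouse 6 far above them. The interaction with genotype passed with a smaller response in knockouts for 17 of the 31 matrix genes. Over all genes it passed for 12.3%, in either direction. Genotype and animal series cannot be told apart for the control groups behind these values. Col18a1, a basement membrane collagen, differed by 0.78 ± 0.28 in knockouts and by 2.50 ± 0.29 in wild types (interaction -1.72 ± 0.41, adjusted p = 0.00743). Timp2, a related inhibitor, differed by -0.38 ± 0.17 in knockouts and by 0.84 ± 0.18 in wild types (interaction -1.21 ± 0.24, adjusted p = 0.00288).

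The remaining genes with the largest falls had varied roles. Itih2, a heavy chain of inter-alpha-trypsin inhibitor that binds hyaluronan, fell by 1.44 ± 0.22 (adjusted p = 0.0017), with DSS mouse 5 at 7.73 just under the lowest control of 7.85 and the other DSS mice at 6.47 to 6.70. Smpx, a small muscle protein, fell by 1.44 ± 0.28 (adjusted p = 0.00896), less than in wild type by 1.60 ± 0.41 (adjusted p = 0.0115). Cpn1, the catalytic subunit of carboxypeptidase N, fell by 1.51 ± 0.39 (adjusted p = 0.0442). St3gal5, the sialyltransferase that makes ganglioside GM3, fell by 1.15 ± 0.26 (adjusted p = 0.0255), although DSS mouse 4 at 9.04 was just above the highest control. Fcrls, an Fc receptor-like scavenger receptor, fell by 0.99 ± 0.19 (adjusted p = 0.00735) and read 7.20 to 7.60 in controls and 6.17 to 6.73 on DSS, with no overlap. Gda, guanine deaminase, and Xdh, xanthine dehydrogenase, neighbouring steps of purine breakdown, rose by 1.04 ± 0.24 (adjusted p = 0.0301) and 0.89 ± 0.19 (adjusted p = 0.0192). Same-series differences were -1.27 ± 0.25 for Itih2, -1.09 ± 0.31 for Smpx and -1.26 ± 0.43 for Cpn1 (adjusted p = 0.0583, 0.135 and 0.206). They were -0.55 ± 0.22 for St3gal5 and -1.01 ± 0.22 for Fcrls (adjusted p = 0.281 and 0.0701), and 0.75 ± 0.25 for Gda and 0.67 ± 0.22 for Xdh (adjusted p = 0.185 and 0.17).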

How the data were processed

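The data were 37 Affymetrix Mouse Gene 1.0 ST arrays, of which 9 form the comparison described. The deposited log2 values were made by the authors with RMA, per the submitters' processing notes. No source used here names the log base, and base 2 was assumed because values span 3.03 to 14.96. RMA scales arrays against each other, so differences are relative to all genes. Of 35511 probe clusters, 21789 had 1 gene symbol in the platform annotation, 1621 several and 12101 none. For 999 genes with several clusters the one with the highest mean was kept, which gave 19938 genes.

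Differences were fitted with limma 3.58.1 in R 4.3.3 (lmFit and eBayes) with 8 group means over all 37 arrays. Within-series and between-series differences used means per group and form of animal number. A gene was called at a Benjamini-Hochberg adjusted p under 0.05 over all genes, and ± is the standard error of the fit. The fit was also run on simulated data with independent noise and, for each changed gene, an equal shift in all knockout DSS arrays. That simulation held no difference between animal series, so it cannot show how the test behaves with one. Named genes were the 20 calls with the largest differences in each direction, the within-series calls, the 3 members of each list with the largest difference, the 5 largest calls in each direction between the DSS groups, and the Timp genes. Cell type markers were named from the marker list. Arntl, Capsl, Ciart, Cryzl2, Fdft1, Fgfr3, Fmo4, Gstm1, Gstm4, Hlf, the Hox genes, Ifng, Il18bp, Irf8, Nr1d2 and Slc16a1 were chosen after their values were seen. Members and lists were chosen with earlier results of these data known. Promoters came from RefSeq (GRCm38.p6). Alternatives covered array weights, filters, covariates, subsets and each array left out. Text values were made with Python 3.11.15, pandas 2.3.3 and numpy 2.4.6.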

Additional observations from a re-analysis of the deposited data

Results flagged for a closer look

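In 6 of 53 genes checked (the largest calls of each comparison, the within-series calls and the Timp genes), 1 of the 6 knockout DSS mice lay apart from the others by more than Dixon's 95% limit of 0.625 for the gap divided by the range. Mouse 5 was the highest for Itih2 (0.815), Mptx1 (0.735) and Pdzd7 (0.630). Mouse 6 was the highest for Nfil3 (0.766) and Timp1 (0.634), and mouse 4 for Cpn1 (0.709). Chance alone passes this limit in about 1 in 20 groups.

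The response to DSS differed between knockout and wild-type mice, by the interaction in limma, for 13 of the same 53 genes. Over all genes the interaction passed for 12.3%. Col18a1, described with the matrix genes, was not among the 53. The knockout minus wild-type response was -3.51 for Saa3, -2.52 for Timp1, -2.31 for Retnlg, -2.21 for Dbp and -1.70 for Nr1d1 on the log2 scale. It was -1.34 for Bhlhe41, -1.21 for St3gal5 and -1.21 for Timp2. The value was above 0 for Wfdc2 (1.61), Smpx (1.60), Slc20a1 (1.34), Itih2 (1.02) and Ubd (0.85). All wild-type acute mice had plain animal numbers, so genotype and animal series cannot be told apart for the control groups behind these values.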

How the results depend on the processing

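The count of 223 genes between knockout DSS and control mice was 207 with a trended and robust prior, 226 without the dimmest genes (the lowest 33.3%), 229 after cyclic loess and 231 with every cluster tested separately. It was 3247 with array weights, 0 with only the arrays compared (2253 at an unadjusted p under 0.05, limma), 3 with animal series as a covariate or within 1 series, and 115 with sex as a covariate. In alternatives chosen after seeing the data, 80 genes passed with both male mice left out and 2642 for plain-number DSS mice against the controls. Leaving out 1 array gave 15 (without control 1) to 630 (without DSS mouse 5). The 3 genes within the series became 8 without the dimmest genes, 9 after cyclic loess, 180 with array weights, 0 with only the arrays compared and 7 with both male mice left out, and ranged from 0 to 164 with 1 array left out. The 2988 genes between the DSS groups became 5374 with array weights and 654 with only the arrays compared, and ranged from 1450 to 2809 with 1 array left out. The 2444 genes with an interaction became 5000 with array weights, 536 with only the arrays compared and 1308 with the knockout effect taken within 1 series, and ranged from 1257 to 3981 with 1 array left out. The cause of these shifts was not tested. None of the 223 genes called between knockout DSS and control mice changed direction where direction was compared for all calls. The direction of all calls of the other comparisons is not given here. No paired analysis was possible because the groups share no animal numbers in the labels. The number of arrays, with 3 controls, limits the precision of every difference.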
